A study of Mus musculus with 9 samples.

Results

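Translation initiation factors (eIFs) and elongation factors (eEFs) were examined at the transcript level in pancreatic islets of mice that lack *Raptor* in beta cells. The genes reported were those whose symbol on the array begins with *Eif* or *Eef* and a digit and that a probe set specific to 1 gene measures. This gave 56 genes of 18193 on the array, among them the subunits of the initiation complexes, the eIF4E-binding proteins, the eIF2 kinases and the enzymes that modify elongation factors. RNA was measured on 9 Affymetrix Mouse Genome 430 2.0 arrays, to find which transcripts change when beta cells lose *Raptor*. KO islets (4 arrays) came from βRapKO mice, which carried *Raptor* flox/flox alleles and a Cre transgene under the rat insulin promoter (RIP-Cre). WT islets (5 arrays) came from littermates with the same flox/flox alleles and no Cre, so both groups carried the floxed gene and only KO mice carried Cre. Islets with Cre alone were not analysed here. The floxed line was C57BL/6J and the Cre line had a mixed background that included C57BL/6J. All mice were male and 8 weeks old, and each array held pooled RNA from the islets of 5 animals of a genotype.

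Initiation begins when the eIF4F complex, made of the cap-binding protein eIF4E, the scaffold eIF4G and the helicase eIF4A, binds the mRNA cap, while eIF2 delivers the initiator tRNA to the small ribosomal subunit and eIF3 joins the pieces. Elongation runs on eEF1, which brings aminoacyl-tRNA to the ribosome, and eEF2, which moves the ribosome along the mRNA. mTORC1, the kinase complex that needs Raptor, acts on this machinery through protein phosphorylation (of the eIF4E-binding proteins and, through S6 kinase, of eIF4B and the eEF2 kinase) and through the translation of mRNAs that begin with a run of pyrimidines. Arrays measure the abundance of the mRNAs that encode these factors, not their phosphorylation or translation.

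The values are log2 signals per probe set, and a difference is KO minus WT on that scale, so that 1 unit is a doubling. *Rptor* itself was lower in KO islets by the brightest of its probe sets (difference -0.72 ± 0.17, SE; limma, adjusted p = 0.0410), but with all of them averaged the difference was -0.16 (adjusted p = 0.888, with a range of 0.00797 to 0.888 over the alternatives). Where its probes lie relative to the deleted part of the gene was not analysed here. Array medians lay between 6.85 and 7.05, and pairs of arrays correlated at 0.928 to 0.959 across the 13644 genes bright enough to be tested. Markers of beta cells were called lower in KO islets (adjusted p under 0.05) in 5 of 8 tested genes, where 2.63% of all genes were. All 8 were below 0, but the hormone genes *Ins2* and *Iapp* were only at -0.05 (limma, adjusted p = 0.881) and -0.12 (adjusted p = 0.463). The mean over the list was 13.23 to 13.42 per KO array against 13.84 to 14.02 per WT array. Stromal markers were called higher in 7 of 13 tested genes, where 3.67% of all genes were, with list means of 9.45 to 10.09 in KO and 8.12 to 9.13 in WT islets. In such bulk RNA, a change in the number of cells of a type and a change in these transcripts per cell cannot be told apart.

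Transcripts of the translation factors differed little between KO and WT islets. Of the 56 genes, 55 were bright enough to be tested, and only *Eif3f*, which encodes a subunit of eIF3, passed the threshold of an adjusted p under 0.05 (limma, Benjamini-Hochberg over 13644 genes). It was higher in KO islets, and no gene of the set was called lower. That is 1.82% of the set, where 6.3% of all genes tested were called, 3.67% higher and 2.63% lower. At an unadjusted p under 0.05 there were 8 genes, 6 higher and 2 lower in KO islets, or 14.5% of the set against 21.8% of all genes (13.3% higher and 8.43% lower). By its brightest probe set, no tested gene of the set differed by more than 1.5-fold, a size that 13.9% of all genes exceeded, and the largest difference was 1.41-fold. Some dimmer probe sets of these genes differed by more.

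In the fit without covariates, the spread between pools also set bounds on the differences of the brightest probe sets. These bounds do not cover the choice of probe set or shifts in cell types between the groups. The 95% interval lay entirely within 1.5-fold in either direction for 44 of the 55 genes, or 80% of them, where this held for 51.4% of all genes tested. It lay within 2-fold for 54, and the exception was *Eef2kmt*, the gene of an eEF2 lysine methyltransferase. *Eef2kmt* was the dimmest of those tested, with 6.70, 5.58, 5.69 and 6.70 in KO islets and 7.09, 7.13, 4.65, 5.61 and 5.09 in WT islets. Its interval ran from -1.03 to 1.54 (difference 0.26, adjusted p = 0.851), so its 9 arrays bound it poorly. The median absolute difference was 0.12 over the 55 genes and 0.19 over all genes tested, and the median SE was 0.11 over the 55 genes and 0.15 over all genes tested, so the set was also measured with less error. The signed median was 0.06, against 0.04 for all genes tested, and 34 of the 55 differences (61.8%) were above 0, as were 56.2% of those of all genes.

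**Figure D1:**
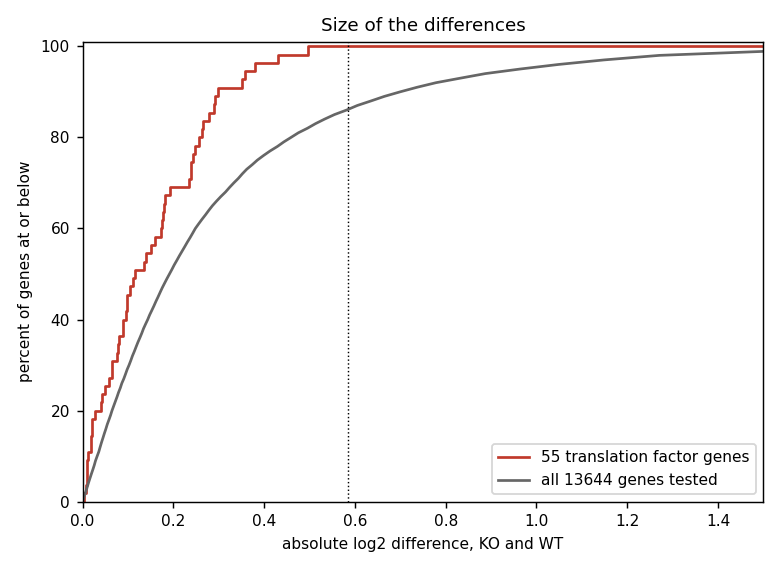
Cumulative percent of genes (y axis) at or below an absolute log2 difference between KO and WT islets (x axis), for the 55 translation factor genes (red) and all 13644 genes tested (grey). The dotted line marks 1.5-fold, which none of these 55 genes exceeded by its brightest probe set and 13.9% of all genes did.

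Groups that did not overlap were seen for 5 genes of the set, or 9.09%, and in each of them every KO array lay above every WT array. Over all genes tested, 7.43% had every KO array above every WT array and 12.5% did not overlap in either direction. The 5 genes were *Eif3f*, *Eif3h*, *Eef1b2*, *Eif2a* and *Eif2ak4*, of which *Eif3f* and *Eif3h* encode subunits of the same complex, eIF3. The mean log2 signal over the 55 genes was 11.13, 11.03, 11.07 and 11.13 on the KO arrays and 11.01, 11.03, 11.04, 11.004 and 11.06 on the WT arrays. The second KO array lay among the WT arrays in this mean, and the other KO arrays lay just above them.

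**Figure D2:**
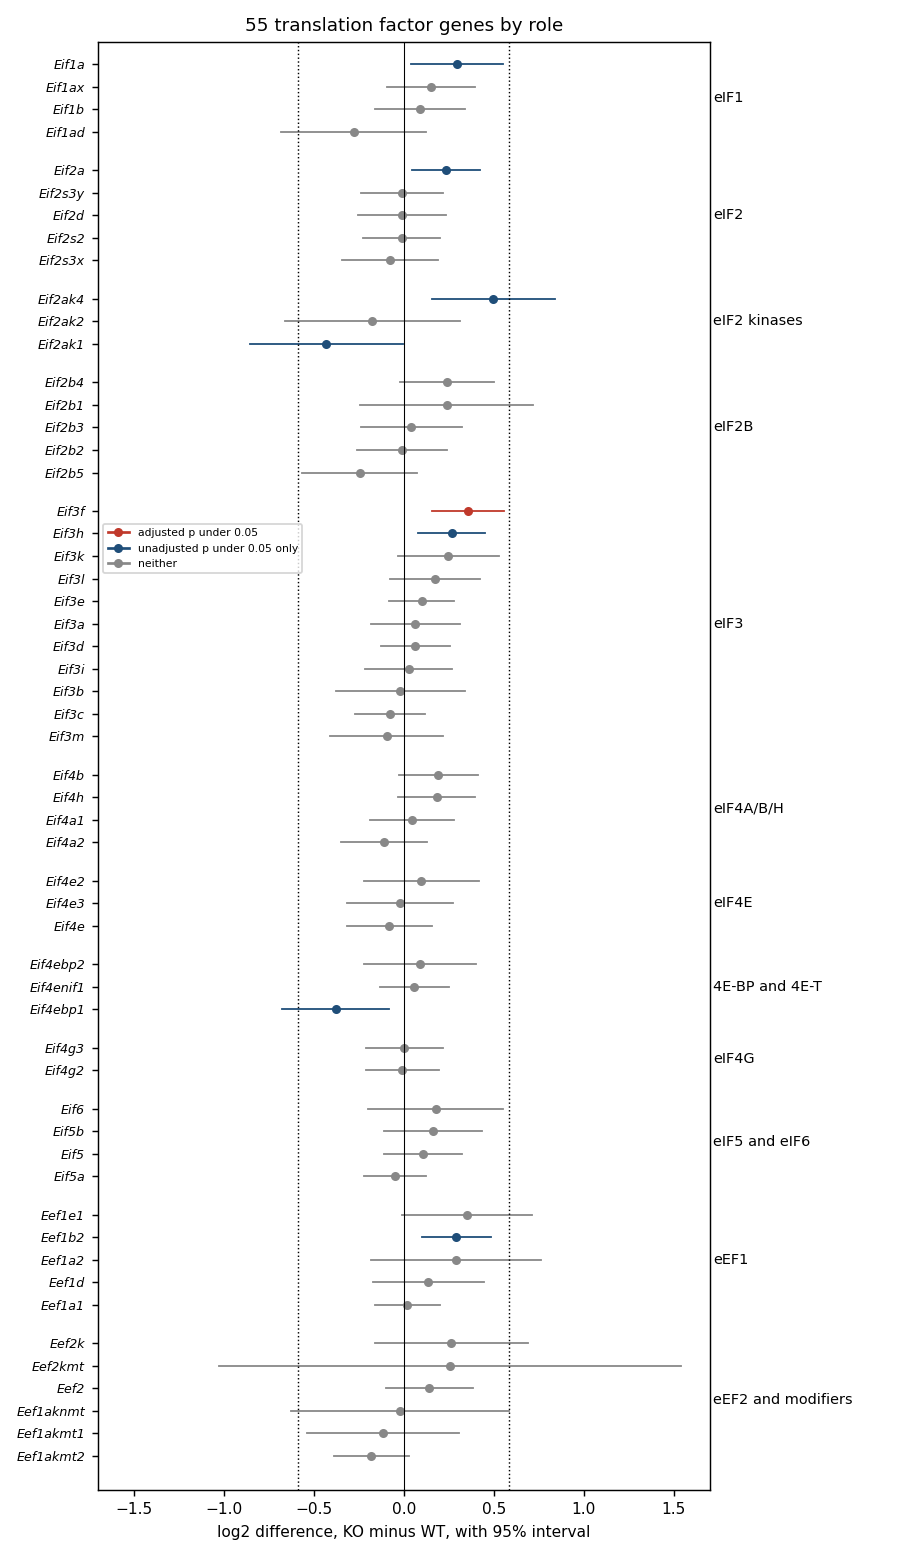
Log2 difference, KO minus WT (x axis), with its 95% interval for each of the 55 tested genes (rows), grouped by role. Dotted lines mark 1.5-fold in either direction. Only *Eif3f* passed the adjusted threshold (red), and 7 more genes had an unadjusted p under 0.05 (blue).

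Runs of pyrimidines at the annotated transcript start are shown here because mRNAs that begin with such a run are those whose translation mTORC1 is known to control. Whether islets use these annotated starts was not tested, so a tract in a window does not by itself show that the mRNA begins with it. Windows of 30 bases were read from RefSeq (GRCm38.p6) around each annotated start, 10 bases before it and the rest from it on. Only the strand that reads as the mRNA does was used. Capitals mark a tract, taken as a C followed by at least 4 bases that are each C or T and beginning within 5 bases of the annotated start. Where several C bases qualified, the one nearest to the annotated start was taken as the beginning, so pyrimidines just before the capitals, as in *Eif3f*, *Eif2s3x* and *Eef1a1*, are left in lower case and out of the stated lengths. The genes shown are the called gene, a pair of elongation factors and the gamma subunits of eIF2 on the X and Y chromosomes, which had the longest tracts of the set along with *Eif3f*. The windows lie at chr7:108934405-108934434 (*Eif3f*, plus strand), chrX:94212632-94212661 (*Eif2s3x*, minus), chrY:1010585-1010614 (*Eif2s3y*, plus), chr9:78481705-78481734 (*Eef1a1*, minus) and chr1:63176821-63176850 (*Eef1b2*, plus).
Eif3f: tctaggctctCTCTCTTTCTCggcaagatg
Eif2s3x: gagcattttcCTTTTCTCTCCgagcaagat
Eif2s3y: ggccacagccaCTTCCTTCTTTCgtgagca
Eef1a1: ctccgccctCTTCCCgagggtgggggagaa
Eef1b2: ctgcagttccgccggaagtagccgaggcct

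The eIF3 complex, the largest initiation factor, held the called gene. Of its 11 tested subunits 8 were above 0 and 3 below, with a median difference of 0.06 and a range of -0.09 to 0.36. *Eif3f*, whose start window above holds a tract of 11 bases, measured 12.65, 12.61, 12.55 and 12.52 in KO islets and 12.11, 12.16, 12.42, 12.16 and 12.27 in WT islets. All 4 KO arrays were above all 5 WT arrays, and the third WT array came closest. The difference was 0.36 ± 0.09 (SE; 1.28-fold, 95% interval 0.16 to 0.56, limma adjusted p = 0.0481). The call sat close to the threshold, and over the alternatives its adjusted p ranged from 0.0100 to 0.775. It was lost when dim genes were kept in the test (adjusted p = 0.0904), when arrays were centred on their medians (0.187), and when any single array other than the third WT array was left out (up to 0.137), while the direction held throughout.

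*Eif3h*, which encodes the other subunit of this set with the MPN fold besides eIF3f, measured 12.91, 12.64, 12.78 and 12.83 in KO islets and 12.45, 12.54, 12.51, 12.59 and 12.51 in WT islets. The groups did not overlap, and the WT arrays spread over only a narrow range. The difference was 0.27 ± 0.08 (SE; 1.20-fold) with an adjusted p of 0.0929, which ranged from 0.0311 to 0.767 over the alternatives, and with its probe sets averaged, the others of which are dim, the difference was -0.14. *Eif3k* and *Eif3l*, which encode a pair of peripheral subunits that bind each other, gave differences of 0.25 ± 0.13 (adjusted p = 0.290) and 0.17 ± 0.11 (adjusted p = 0.415). In *Eif3k* the KO arrays lay between 11.86 and 12.08 and the WT arrays between 11.49 and 12.00, so the groups overlapped. The other 7 subunits, which include the large scaffold subunits eIF3a, eIF3b and eIF3c, lay between -0.09 and 0.10, and none of them had an unadjusted p under 0.05.

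The elongation factor 1 group, which here includes *Eef1e1* by its symbol, was the only role group in which every tested gene was above 0. Its 5 genes had a median difference of 0.29 and a range of 0.02 to 0.35, and 1 of the 5 had an unadjusted p under 0.05. That gene was *Eef1b2*, which encodes the exchange factor that returns eEF1A to its GTP form. It measured 13.29, 13.04, 13.01 and 13.17 in KO islets and 12.84, 12.77, 12.90, 12.87 and 12.81 in WT islets. Every KO array was above every WT array, and the difference was 0.29 ± 0.09 (SE; 1.22-fold, 95% interval 0.10 to 0.49, adjusted p = 0.0810, from 0.0205 to 0.752 over the alternatives).

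*Eef1e1*, whose product sits in the complex of tRNA synthetases, measured 10.37, 10.09, 10.55 and 10.65 in KO islets and 9.92, 9.85, 10.00, 10.47 and 10.07 in WT islets. The fourth WT array lay within the KO range, and the difference was 0.35 ± 0.16 (adjusted p = 0.240). The eEF1A genes encode the factor that carries aminoacyl-tRNA, and they behaved differently in their spread. *Eef1a1*, the form used in most tissues, measured 15.12, 15.01, 14.99 and 15.10 in KO islets and 15.02, 15.01, 15.05, 14.93 and 15.16 in WT islets. The groups covered the same range, and the difference was 0.02 ± 0.08 (95% interval -0.16 to 0.20, adjusted p = 0.924), at a signal so high that differences may be compressed, which was not tested.

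*Eef1a2*, the form known from muscle and neurons, measured 10.06, 10.32, 10.37 and 10.07 in KO islets and 10.12, 9.73, 10.24, 9.26 and 10.21 in WT islets. The WT arrays spread widely and 3 of them lay within the KO range. The difference was 0.29 ± 0.21 (adjusted p = 0.473), and without the fourth WT array it was 0.13 (adjusted p = 0.681, with a range of 0.346 to 0.998 over the alternatives).

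*Eef2*, the translocase itself, measured 13.93, 13.71, 13.67 and 14.03 in KO islets and 13.62, 13.61, 13.66, 13.69 and 13.90 in WT islets. The fifth WT array and, barely, the fourth lay within the KO range, and the difference was 0.14 ± 0.11 (95% interval -0.10 to 0.38, adjusted p = 0.50). *Eef2k*, whose product phosphorylates and slows eEF2, measured 8.96, 8.46, 8.56 and 9.16 in KO islets and 8.38, 8.40, 8.39, 9.01 and 8.43 in WT islets. KO islets thus held 2 high arrays and WT islets 1, with a difference of 0.26 ± 0.19 (adjusted p = 0.470). Without the fourth KO array it was 0.14 (adjusted p = 0.735, with a range of 0.223 to 0.936 over the alternatives). Of the methyltransferase genes in this group, *Eef1akmt2* had the lowest p, with a difference of -0.18 ± 0.09 (adjusted p = 0.296). The 6 genes of eEF2 and the modifying enzymes were split evenly, 3 above and 3 below 0.

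**Figure D3:**
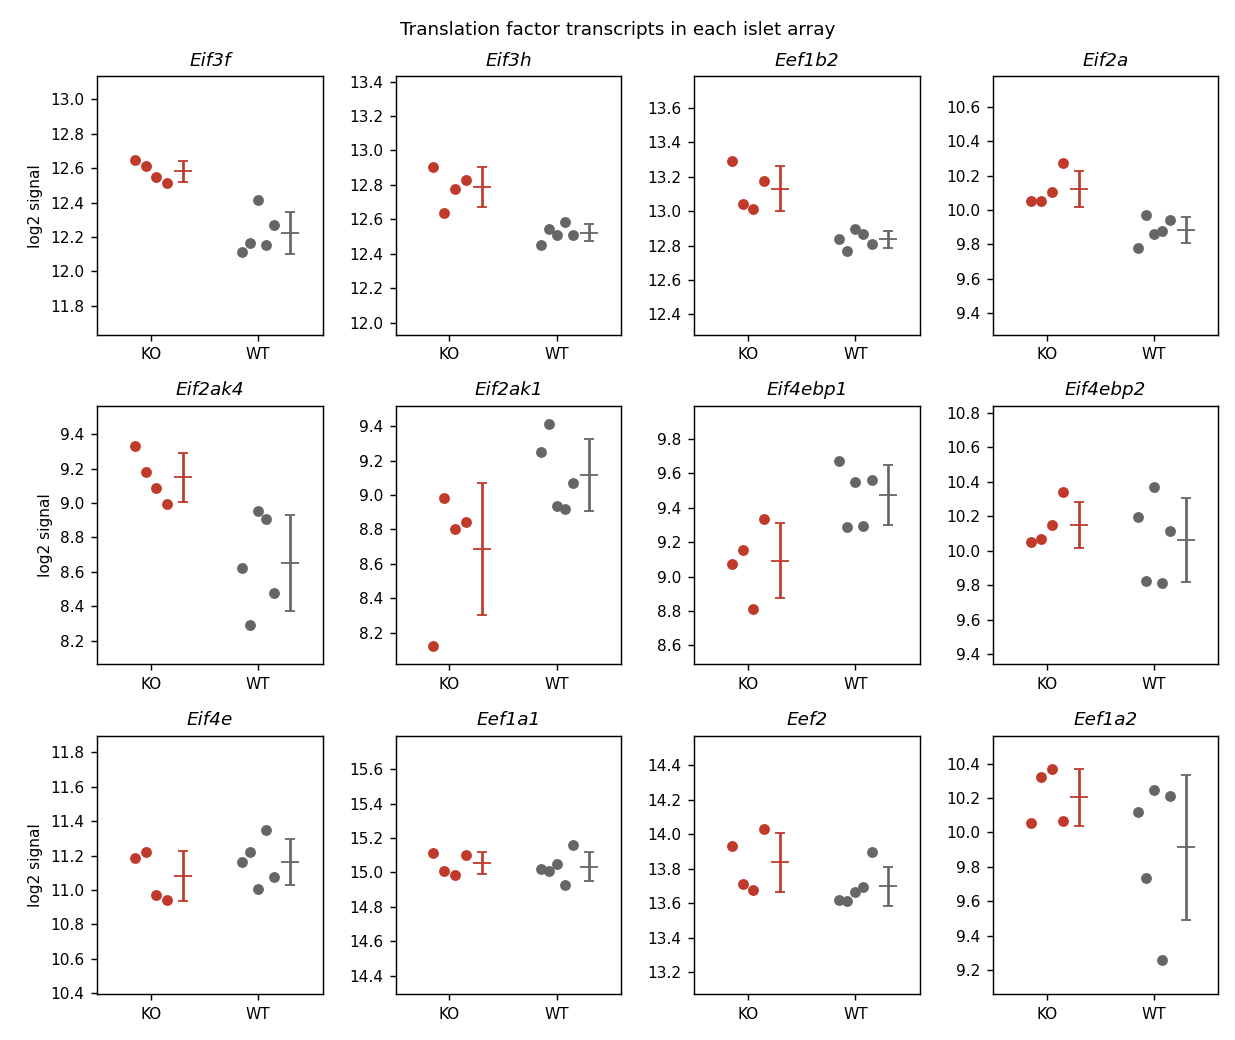
Log2 signal (y axis) of 12 translation factor genes on each KO array (red, left) and each WT array (grey, right), with the group mean and SD beside the points. Every panel spans 1.5 log2 units. *Eif3f*, *Eif3h*, *Eef1b2*, *Eif2a* and *Eif2ak4* have all KO points above all WT points, whereas *Eef1a1* covers 14.99 to 15.12 in KO and 14.93 to 15.16 in WT islets.

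The eIF2 kinases phosphorylate eIF2 and thereby lower initiation under stress, and their transcripts gave the widest differences of the set, in opposite directions. *Eif2ak4* encodes Gcn2, the kinase that responds to uncharged tRNA. It measured 9.33, 9.18, 9.09 and 8.995 in KO islets and 8.62, 8.29, 8.95, 8.91 and 8.48 in WT islets, with the lowest KO array just above the highest WT array. The difference was 0.50 ± 0.15 (SE; 1.41-fold, 95% interval 0.15 to 0.84, adjusted p = 0.0901, from 0.0426 to 0.855 over the alternatives). A much dimmer second probe set of the gene gave -0.79 ± 0.58, and with both averaged the difference was -0.14.

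*Eif2ak1* encodes HRI, the kinase known for sensing haem. It measured 8.12, 8.98, 8.80 and 8.84 in KO islets and 9.25, 9.41, 8.94, 8.92 and 9.07 in WT islets. The second KO array lay within the WT range and the first KO array was far below all others. The difference was -0.43 ± 0.19 (adjusted p = 0.224), and without the first KO array it was -0.24 (adjusted p = 0.411, with a range of 0.139 to 0.920 over the alternatives). The gene of PKR, the kinase that responds to double-stranded RNA, was the third kinase tested and had no unadjusted p under 0.05.

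By its brightest probe sets, the eIF2 group was flat apart from *Eif2a*, which encodes an alternative initiator-tRNA factor and not the alpha subunit of eIF2. Other probe sets of *Eif2s2* and *Eif2d* that differed more are given below. *Eif2a* measured 10.05, 10.05, 10.11 and 10.27 in KO islets and 9.78, 9.97, 9.86, 9.88 and 9.94 in WT islets. Every KO array was above every WT array, and the difference was 0.24 ± 0.08 (SE; 1.18-fold, adjusted p = 0.139). The other 4 genes of the group, which include the beta and gamma subunits of eIF2, lay between -0.08 and -0.01. *Eif2s1*, the gene of the alpha subunit that the kinases phosphorylate, was not analysed here.

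The 5 subunits of eIF2B, which reloads eIF2 with GTP, had a median difference of 0.04, with 3 above and 2 below 0. *Eif2b4*, a regulatory subunit, measured 10.23, 10.18, 9.92 and 9.94 in KO islets and 9.59, 9.89, 9.82, 9.80 and 10.04 in WT islets. Only the fifth WT array lay within the KO range, and the difference was 0.24 ± 0.12 (adjusted p = 0.273). *Eif2b5*, the catalytic subunit, measured 9.92, 9.55, 9.47 and 10.12 in KO islets and 10.10, 10.08, 9.99, 9.97 and 9.89 in WT islets. It had a pair of low KO arrays and a pair within or above the WT range, and the difference was -0.24 ± 0.14 (adjusted p = 0.357).

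**Figure D4:**
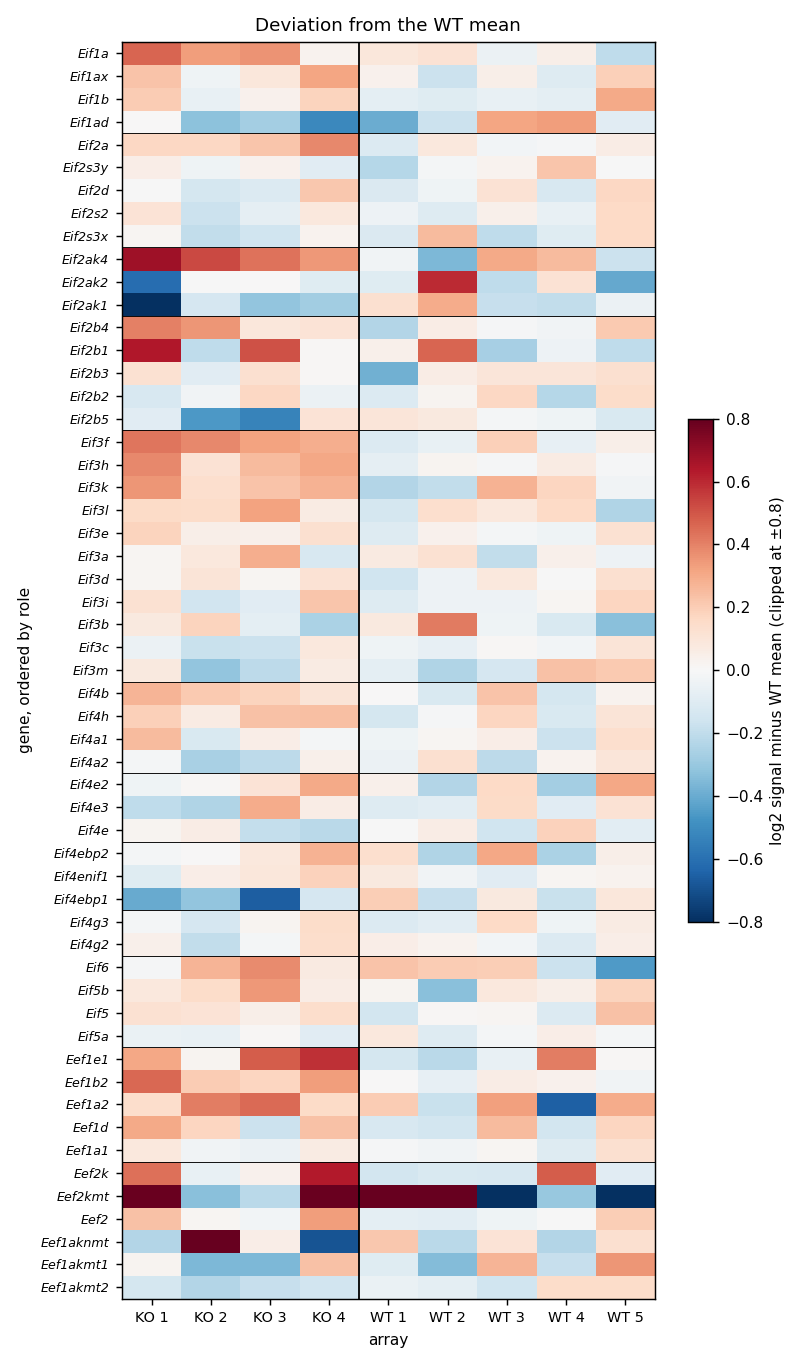
Log2 signal of each of the 55 tested genes (rows, ordered by role) on each array (columns, KO left of the line and WT right) minus that gene's WT mean, with colours clipped at ±0.8. The *Eif2ak4* row is above the WT mean on all 4 KO arrays, whereas the *Eif2ak1* row is lowest on the first KO array, where it measured 8.12.

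The eIF4E-binding proteins are the direct mTORC1 substrates of this set, and in their unphosphorylated form they hold eIF4E away from eIF4G. *Eif4ebp1* measured 9.07, 9.15, 8.81 and 9.34 in KO islets and 9.67, 9.29, 9.55, 9.29 and 9.56 in WT islets. The fourth KO array lay above the lowest WT arrays, and the other KO arrays were below all of them. The difference was -0.38 ± 0.13 (SE; 1.30-fold lower, 95% interval -0.68 to -0.08, adjusted p = 0.131, from 0.0743 to 0.584 over the alternatives). Its other probe sets gave -0.20 ± 0.33 and -0.14 ± 0.22.

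*Eif4ebp2*, its paralogue, measured 10.05, 10.07, 10.15 and 10.34 in KO islets and 10.20, 9.82, 10.37, 9.81 and 10.11 in WT islets. The KO arrays lay inside the WT range, with a difference of 0.09 ± 0.14 (95% interval -0.22 to 0.40, adjusted p = 0.770). A dimmer probe set of the gene gave -0.61 ± 0.21 with an unadjusted p of 0.0184 and an adjusted p of 0.191 (limma on single probe sets). *Eif4ebp3* was not analysed here, because its probe set is shared with another gene.

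*Eif4e* measured 11.18, 11.22, 10.97 and 10.94 in KO islets and 11.16, 11.22, 11.00, 11.35 and 11.08 in WT islets. The groups overlapped, and the difference was -0.08 ± 0.10 (95% interval -0.32 to 0.16, adjusted p = 0.716). Dimmer probe sets of *Eif4e* gave -0.19 ± 0.12, 0.07 ± 0.21 and -0.75 ± 0.30, the last with an adjusted p of 0.253 (limma on single probe sets). By their brightest probe sets, both other cap-binding paralogues were within 0.10 of 0. The other probe sets of *Eif4e2* ranged from -0.06 to 1.01, and that at 0.45 ± 0.17 had an unadjusted p of 0.0298 and an adjusted p of 0.241 (same test). *Eif4g2*, which encodes DAP5, an eIF4G relative that does not bind eIF4E, measured 14.26, 14.03, 14.21 and 14.36 in KO islets and 14.28, 14.25, 14.20, 14.12 and 14.27 in WT islets. Its difference was -0.01 ± 0.09 (95% interval -0.21 to 0.20, adjusted p = 0.975), and *Eif4g1*, the main scaffold gene, was not analysed here.

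*Eif4b* and *Eif4h* encode cofactors that stimulate the eIF4A helicase. *Eif4b* measured 12.37, 12.31, 12.28 and 12.20 in KO islets and 12.11, 11.98, 12.33, 11.96 and 12.12 in WT islets. The third WT array lay within the KO range, and the difference was 0.19 ± 0.10 (adjusted p = 0.292). *Eif4h* gave 0.18 ± 0.10 (adjusted p = 0.304), with KO arrays between 12.73 and 12.90 and WT arrays between 12.52 and 12.84. *Eif4a3*, which encodes a helicase of the exon junction complex, was the gene left out as too dim, at 1.93 to 2.88 in KO islets and 2.28 to 5.05 in WT islets.

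Of the eIF1 group, which acts in start codon scanning, *Eif1a* measured 10.74, 10.60, 10.63 and 10.30 in KO islets and 10.36, 10.38, 10.22, 10.32 and 10.07 in WT islets. Only the fourth KO array lay within the WT range, and the difference was 0.30 ± 0.11 (SE; 1.23-fold, adjusted p = 0.165). Its X-linked paralogue *Eif1ax* gave 0.15 ± 0.11 (adjusted p = 0.475). *Eif1ad*, which encodes a protein with an eIF1A domain, gave -0.28 ± 0.18 (adjusted p = 0.408). The genes of eIF5, eIF5A, eIF5B and eIF6 lay between -0.05 and 0.18. *Eif5b*, whose product is the GTPase of ribosomal subunit joining, had the lowest p among them, with a difference of 0.16 ± 0.12 (adjusted p = 0.496).

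Markers of several cell types moved with the same groups as these differences. Beside the beta cell and stromal lists, list means were higher on every KO array for delta cells (12.77 to 13.17 in KO and 12.38 to 12.70 in WT islets), endothelial cells (9.92 to 10.22 in KO and 9.59 to 9.82 in WT islets) and ductal cells (7.09 to 7.33 in KO and 5.81 to 6.49 in WT islets). These means rest on mixed genes. Above 0 were 2 of 3 tested delta genes, 7 of 8 endothelial and 3 of 3 ductal, and 1, 0 and 0 were called higher (limma). *Sst*, the delta hormone gene, gave -0.04, endothelial *Flt1* gave -0.15 and ductal *Krt7* gave 0.11. The ductal mean covers 5 measured genes, of which only 3 were bright enough to be tested. The part of the delta, endothelial and ductal shifts in the results was not tested. Stromal list means did not overlap between KO and WT islets, so stromal content and genotype cannot be told apart in these arrays. In a fit that took each array's stromal mean as a covariate, the median difference of the 55 genes was -0.09, the difference of *Eif3f* was 0.12 (adjusted p = 0.775), that of *Eef1b2* was 0.14 (adjusted p = 0.752), and 0 genes of the set were called, where 6 of all genes tested were. *Eif2ak1* was above 0 in that fit, at 0.11 (adjusted p = 0.920). Acinar markers overlapped between the groups, with list means of 8.88 to 13.90 in KO and 9.63 to 13.85 in WT islets. With the acinar mean as a covariate the median was 0.06 and the difference of *Eif3f* was 0.35, but its call was lost (adjusted p = 0.0754) and 0 genes of the set were called.

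Pyrimidine tracts, as in the windows shown above, were then counted over the set. Starts were found for 45 of the 56 genes, and 12 of those (26.7%) had a tract at 1 or more starts, against 21.2% of all genes. By start, 14 of 60 starts of the set (23.3%) had a tract, against 18.3% of 32851 starts of all genes. Of the 12 genes with a tract 5 had an mRNA difference above 0, with a median difference of -0.01, and of the 32 tested genes without a tract 22 were above 0, with a median of 0.09. *Eif3f* was among the genes with a tract, while *Eef1b2*, whose groups did not overlap either, had no tract at its annotated start. This search was made after the values were seen, and a match describes the annotated sequence only. The rule is loose, as its share over all genes shows, and it depends on the annotated start. *Eef2* and *Eif4b* had no tract by it either. The split is therefore not one between mRNAs that mTORC1 controls and others, which was not tested.

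The rest of the translation pathway was read from lists of genes, against the shares over all genes given above (6.3% called, 21.8% at an unadjusted p under 0.05 and 12.5% with groups that did not overlap). Among 15 tested regulators of eIF4F and poly(A)-binding proteins, 1 was called higher and 0 lower (limma), with 2 at an unadjusted p under 0.05. It was *Paip2b*, which encodes a repressor that binds the poly(A)-binding protein, with 12.07, 11.98, 11.97 and 12.04 in KO islets and 11.63, 11.56, 11.52, 11.59 and 11.77 in WT islets. The groups did not overlap, and the difference was 0.40 ± 0.08 (SE; 1.32-fold, adjusted p = 0.0241). With all its probe sets averaged the difference was 0.00 (adjusted p = 0.995, with a range of 0.00397 to 0.995 over the alternatives). *Angel1*, an eIF4E-binding protein gene, was next at -0.42 ± 0.15 (adjusted p = 0.146).

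None of the 6 tested regulators of eIF2 phosphorylation was called (limma; 1 at an unadjusted p under 0.05), and *Ppp1r15a*, which encodes the inducible subunit of the eIF2 phosphatase, had the lowest p, with 0.27 ± 0.11 (adjusted p = 0.183). None of the 9 genes of termination, recycling and reinitiation was called (limma), while 3 of them had an unadjusted p under 0.05, where 21.8% of all genes did, and 2 had groups that did not overlap, where 12.5% of all genes did. *Mcts2*, a retrogene copy of a reinitiation factor gene, measured 7.88, 7.83, 7.95 and 8.24 in KO islets and 8.26, 8.38, 8.60, 8.75 and 8.34 in WT islets (difference -0.49 ± 0.13, adjusted p = 0.0636). *Pelo*, which encodes a ribosome rescue factor, measured 8.73, 8.23, 8.43 and 8.85 in KO islets and 8.10, 8.22, 7.79, 7.98 and 8.01 in WT islets (difference 0.54 ± 0.15, adjusted p = 0.0638). In both genes the groups came within a small step of each other. *Abce1*, the ribosome recycling ATPase, was lower on average, with a difference of -0.72 ± 0.23 (adjusted p = 0.0980) and 1 KO array, at 10.64, within the WT range.

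None of the 9 tested genes for the modification of eIF5A and eEF2 and for selenocysteine was called (limma; 0 at an unadjusted p under 0.05), and *Dph6*, of the diphthamide pathway that modifies eEF2, had the lowest p, with -0.22 ± 0.11 (adjusted p = 0.288). None of 9 mitochondrial translation factors was called (limma; 2 at an unadjusted p under 0.05), and *Guf1*, the mitochondrial elongation factor 4 gene, gave -0.39 ± 0.12 (adjusted p = 0.0984). Besides *Rptor*, the Raptor and S6 kinase list held no called gene among its 3 tested. *Rps6*, the ribosomal protein that S6 kinase phosphorylates, gave 0.44 ± 0.16 (adjusted p = 0.142).

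Most of the genes had more than 1 probe set, 40 of the 56, and the 150 single-gene probe sets of the set allowed a second look. When each probe set was tested on its own, 0 of 135 tested were called, where 2.29% of 26208 probe sets of all genes were. At an unadjusted p under 0.05 there were 16.3% of all probe sets, 7 of the brightest per gene and 9 of the 80 others of the set (11.2%), of which 4 were higher and 5 lower. No gene had both its brightest and another probe set at that level. A second probe set of *Eif4g2* gave -0.22 ± 0.09 with every KO array below every WT array (adjusted p = 0.256), and so did another one of *Eif2d*, which encodes an alternative initiator-tRNA factor, with -0.23 ± 0.10 (adjusted p = 0.291). Bright probe sets among these others were a second one of *Eif5*, with 0.42 ± 0.14 (adjusted p = 0.166), a second one of *Eif4b*, with 0.50 ± 0.19 (adjusted p = 0.246), and one of the eIF2 beta subunit gene *Eif2s2*, with -0.53 ± 0.16 (adjusted p = 0.143), against -0.01 for the brightest *Eif2s2* probe set. Averaging the probe sets of a gene turned the sign for *Eif4ebp2* (-0.08), *Eef2* (-0.33), *Eif2b5* (0.08) and *Eif3l* (-0.29) as well as for *Eif3h* and *Eif2ak4*. Some probe sets of the set can bind related transcripts by their design, among them that of *Eif4h*, so their values are uncertain for a single gene.

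**Figure D5:**
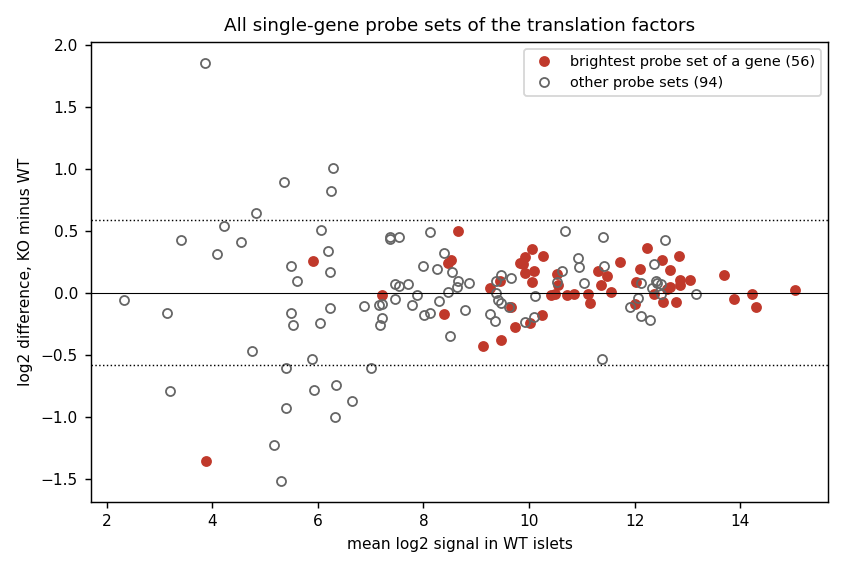
Log2 difference, KO minus WT (y axis), against the mean log2 signal in WT islets (x axis) for the 150 single-gene probe sets of the 56 genes, with the brightest of each gene filled and the other 94 open. Dotted lines mark 1.5-fold in either direction. Differences past those lines belong to dim probe sets, and the only filled point among them is *Eif4a3*, which was too dim to be tested.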

How the data were processed

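Islet RNA of 4 KO and 5 WT pools was hybridised to Affymetrix Mouse Genome 430 2.0 arrays. The authors deposited 1 log2 signal per probe set and array, made with Genespring. How probes were summarised and scaled is not given in the sources used here, but the arrays shared a nearly equal trimmed mean signal (497.1 to 497.7 after undoing the log), as after scaling to a common target, and the lowest log2 value was 0. The number of arrays limits the precision, and bright signals may be compressed. Scan dates were not used here.

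Genes were named from probe sets with 1 gene in the platform annotation (34945 of 45037, against 932 with several and 9160 with none), and all 56 genes matched RefSeq by identifier. A gene was represented by its brightest probe set (highest mean), the lowest 0.25 of genes by mean was left out, and the other 13644 entered a two-sided limma fit without covariates (R 4.3.3, limma 3.58.1). P-values were adjusted by Benjamini-Hochberg over these genes, and a gene was called at an adjusted p under 0.05. Replicates were separate pools, and p-values measure the spread between them. The unpaired t-test of the methods was an alternative, as were other filters, summaries, scalings, weights, covariates and leaving out each array. The script was tested on simulated data. Some genes of these families are not reported here.

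The genes and lists were chosen with earlier results of these data known. Values are given by a rule for the 4E-BPs, *Eif4e*, *Eef1a1*, *Eef1a2*, *Eef2*, called genes, genes whose groups do not overlap, the lowest p of each role and each list, and *Rptor*. *Eif1ad*, *Eif1ax*, *Eif2ak1*, *Eif2b5*, *Eif3k*, *Eif3l*, *Eif4h*, *Eef1e1*, *Eef2k*, *Eef2kmt*, *Eif4a3*, *Abce1*, *Pelo*, *Rps6*, *Angel1* and all second probe sets were chosen after their values were seen.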

Additional observations from a re-analysis of the deposited data

Results flagged for a closer look

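Within-group spread was examined in 74 groups of arrays of the named genes, and 3 held an array set apart from the rest of its group by Dixon's criterion, which chance meets in about 1 of 20 groups. *Eef2* was highest in the fifth WT array, at 13.895, where the next WT array was at 13.69 and the lowest at 13.61. *Eef2k* was highest in the fourth WT array, at 9.01, where the next was at 8.43 and the lowest at 8.38. *Dph6* was lowest in the second KO array, at 10.21, where the next KO array was at 10.57 and the highest at 10.59.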

How the results depend on the processing

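No gene of the set was called lower under any alternative. The count called higher, 1 with the settings used in the text (*Eif3f*, of 860 genes called in all), was 2 with the lowest 0.50 of genes left out (*Eif2ak4* added; 1080 in all), and 3 with an intensity trend in limma's prior (1273 in all) or with the methods' t-test after Benjamini-Hochberg adjustment (717 in all), where *Eif3h* and *Eef1b2* were added. It was 0 with no filter (452 in all), probe sets averaged per gene (317 in all), arrays centred on their medians (474 in all), an acinar covariate (661 in all), a stromal covariate (6 in all), each probe set tested on its own (an alternative chosen after seeing the data; 601 of 26208 probe sets) and the replicate block. The count stayed 1 with quantile normalization (762 in all), an offset of 50 on the linear signal (1070 in all) and array weights (1063 in all). It ranged from 0 to 1 when single arrays were left out (370 to 801 genes in all), and among those fits was 1 only without the third WT array. The methods' t-test gave 8 genes of the set (14.5%) at an unadjusted p under 0.05, against 21.6% of all genes. Also past 1.5-fold were 0 genes of the set and 1094 of all genes.

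The median difference of the set was 0.024 with median centring and -0.088 with the stromal covariate, against -0.001 and -0.058 over all genes tested. With the stromal covariate the direction turned for *Eif2b4* (-0.059), *Eif4b* (-0.033), *Eif4e* (0.042), *Eif4ebp2* (-0.17), *Eif5b* (-0.039), *Eef1a1* (-0.15), *Eef2* (-0.16), *Eif1ax* (-0.15), *Eif2ak1* (0.11), *Eif3k* (-0.11) and *Eif4h* (-0.039). With probe sets averaged it turned for *Eif2ak4* (-0.14), *Eif3h* (-0.14), *Eif4ebp2* (-0.082), *Eef2* (-0.33), *Eif2b5* (0.083) and *Eif3l* (-0.29), where dim probe sets enter with equal weight. With median centring it turned for *Eef1a1* (-0.021). Leaving out single arrays gave -0.057 to 0.055 for *Eif4g2*, -0.0067 to 0.052 for *Eef1a1* and -0.060 to 0.56 for *Eef2kmt*. Causes of these turns were not tested.

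Same-numbered KO and WT arrays shared only a number, with correlations of their deviations of -0.04, 0.09, 0.12 and -0.03. A fit with the replicate number as a block, in which the fifth WT array has no partner, called 0 genes of the set and 64 in all, and *Eif4g2* was at 0.0051 in it.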
